A study of Arabidopsis thaliana with 8 samples.

Results

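The transcripts of 5 genes, among those with the widest falls in seeds of the Arabidopsis thaliana ttg1 mutant, were examined: AT1G56100, annotated as a pectin methylesterase and invertase inhibitor type protein, AT1G09550, a pectin acetylesterase type enzyme, AT3G49270, an extensin-like protein, and AT1G62070 and AT5G60630, which are uncharacterized. They were chosen by their measured fall, the mean of 4 ttg1 arrays minus the mean of 4 wild-type arrays, so that fall is a description and carries no test. Each of the 5 genes had 1 probe set that names 1 gene only, and they are 5 of 13355 genes named in that way by 13513 probe sets. The wild type was Landsberg erecta (Ler), and both genotypes were sampled as developing seeds taken from the siliques between the globular and walking-stick stages, with 4 biological replicates each and 1 Affymetrix ATH1 array per replicate. The mutant is labelled ttg1 only, without a named allele or growth conditions for either genotype, so how separately the replicates were grown is not known. Every p-value refers to the spread among these 8 samples, which are labelled biological replicates, and part of that spread may be technical.

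Pectin is the gel-forming polysaccharide of the plant cell wall, and it is laid down with methyl and acetyl groups that enzymes in the wall later take off. Pectin methylesterases remove methyl groups, inhibitor proteins of the type of AT1G56100 block such enzymes or invertases, and pectin acetylesterases remove acetyl groups. Extensins are hydroxyproline-rich structural proteins of the wall. In the Arabidopsis seed coat, epidermal cells secrete a pectin-rich mucilage and then build a thick secondary wall, and TTG1, a WD40-repeat protein, partners MYB and bHLH transcription factors to control mucilage and seed coat pigment. Which of these functions AT1G56100, AT1G09550 and AT3G49270 serve in the seed was not measured here.

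Log2 values are used throughout, with the median of the 8 arrays of a probe set subtracted from each of its values. A value of 0 therefore lies midway between the highest ttg1 and the lowest Ler array of a gene whose groups are apart, and the size of a value shows no absolute level. For this reason it cannot be told from these values whether a transcript was above background in ttg1, and the seed identity of the samples could not be checked by the presence of marker transcripts. TTG1 itself has 0 probe sets that name it alone and was not analysed here. DFR and BAN, seed coat genes of proanthocyanidin synthesis, had log2 differences (ttg1 minus Ler) of -6.99 ± 0.14 and -6.43 ± 0.12 (SE, 4 arrays per group). The medians of the 8 arrays lay between -0.0126 and 0.0279, and the median difference over 22746 probe sets was 0.03.

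In all 5 genes every ttg1 value lay below every Ler value. The same held for 8.33% of all probe sets, and nothing is read from this count because the genes were chosen on that contrast. The fall was widest for AT1G56100, followed by AT1G62070, AT5G60630, AT3G49270 and AT1G09550. Among 22746 probe sets they ranked 2, 6, 10, 13 and 17 by the size of the fall, and among the probe sets with 1 gene 2, 4, 6, 7 and 9. The genes between and beside them in that order were AT2G38900 at rank 1 (log2 difference -8.09), DFR at 3, BAN at 5, AT2G21430 at 8 (-4.36) and AT2G14900 at 10 (-3.91). In these whole seeds, fewer cells of a type and less RNA per cell cannot be told apart.

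**Figure D1:**
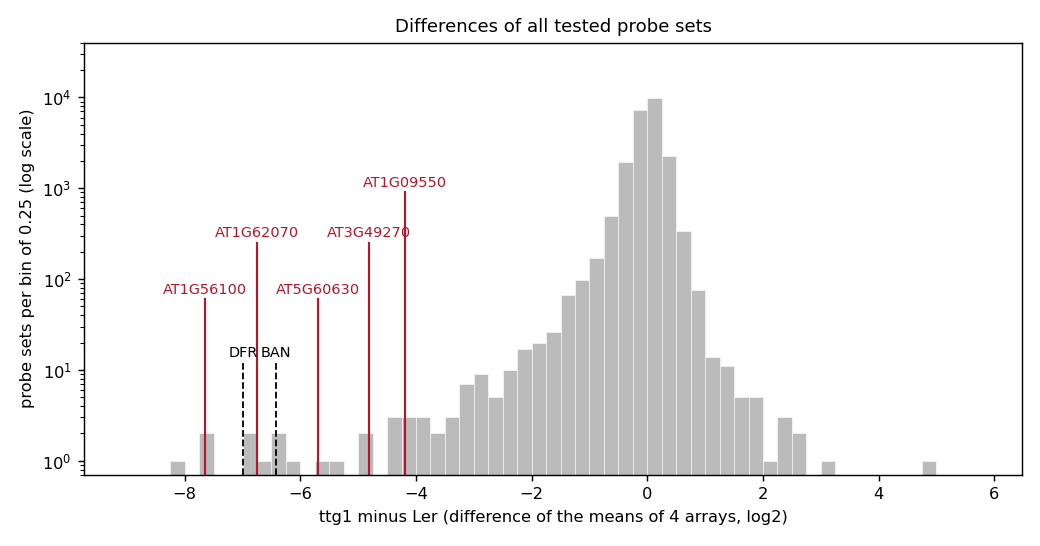
Histogram of the log2 difference (ttg1 minus Ler, x axis) over 22746 probe sets, with the number of probe sets on a log y axis. Red lines mark the 5 genes, from AT1G56100 at -7.65 to AT1G09550 at -4.19, and dashed lines mark DFR and BAN, all far to the left of the bulk of probe sets around 0.

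AT1G56100, the inhibitor type gene, had log2 values of -4.11, -4.65, -3.36 and -4.36 in ttg1 replicates 1 to 4. In Ler replicates 1 to 4 its values were 3.53, 3.36, 3.74 and 3.47. The groups were apart by 6.72 between the highest ttg1 and the lowest Ler array, and ttg1 replicate 3 was the least reduced of the mutant arrays. The ttg1 mean was -4.12 ± 0.554 and the Ler mean 3.53 ± 0.16 (SD, n = 4), a log2 difference of -7.65 ± 0.23 (SE), which is a 200.3-fold lower signal. With the smallest distance between the groups instead of the means, the fold was 105.1.

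AT1G09550, of the pectin acetylesterase type, had values of -1.81, -2.36, -2.93 and -1.92 in the ttg1 replicates. In the Ler replicates it had 2.03, 1.97, 1.81 and 1.91. Among the mutant arrays replicate 3 was lowest for this gene, whereas for AT1G56100 it was highest, and the Ler arrays lay within 0.215 of each other. The log2 difference was -4.19 ± 0.21, an 18.2-fold lower signal and the smallest fall of the 5 genes.

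AT3G49270, the extensin-like gene, had values of -2.63, -2.5, -2.14 and -3.0 in the ttg1 replicates. The Ler values were 2.28, 2.14, 2.28 and 2.31, with replicate 2 a little below the other Ler arrays, which lay close together. The log2 difference was -4.82 ± 0.15 and the signal was 28.2-fold lower in ttg1. In the mutant the lowest value was that of replicate 4 and the highest that of replicate 3.

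AT1G62070, uncharacterized, had values of -3.0, -3.19, -2.97 and -3.11 in the ttg1 replicates, which agree within 0.216. The Ler values were 2.97, 4.05, 3.93 and 3.76, with Ler replicate 1 below the other wild-type arrays by 0.787 or more. Its log2 difference was -6.74 ± 0.2, a 107.3-fold lower signal, and without Ler replicate 1 it was -6.98. Ler replicate 1 was also the Ler array with the lowest mean of 3 measured seed filling genes (-0.842, against -0.0844, 0.286 and 1.3 in Ler replicates 2 to 4), and the part of seed stage in the low value was not tested.

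AT5G60630, also uncharacterized, had values of -2.56, -3.03, -3.1 and -3.38 in the ttg1 replicates. In the Ler replicates it had 2.67, 2.69, 2.83 and 2.56, again with no overlap. The log2 difference was -5.7 ± 0.15, a 52.1-fold lower signal. Replicate 4 had the lowest value in both genotypes, although the labels do not say whether the numbers pair samples.

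**Figure D2:**
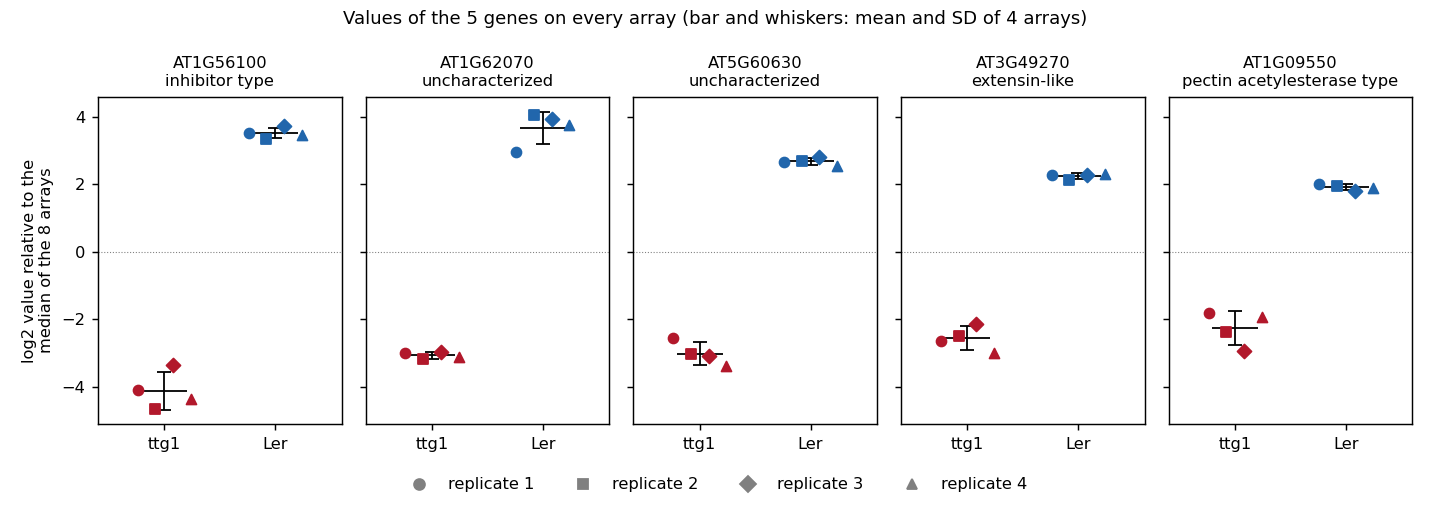
Log2 values of the 5 genes relative to the median of the 8 arrays (y axis) on each ttg1 (red) and Ler (blue) array, with a marker shape per replicate number and the mean and SD of 4 arrays in black. The ttg1 arrays of AT1G56100 and AT1G09550 are widely spread, while for AT1G62070 it is the Ler arrays, with replicate 1 lowest.

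The 5 falls can be read beside their errors, with no test, since the genes were chosen by them. The 95% interval of the log2 difference ran from -8.15 to -7.14 for AT1G56100, from -7.18 to -6.31 for AT1G62070 and from -6.04 to -5.37 for AT5G60630. For AT3G49270 it ran from -5.16 to -4.48 and for AT1G09550 from -4.64 to -3.73. The falls come from different probes, which can differ in how they report the same fold. Quantile normalization of the centred values made all 5 folds over 1.5 times smaller, at 61.4 for AT1G56100, 37 for AT1G62070, 18.7 for AT5G60630, 12.7 for AT3G49270 and 8.7 for AT1G09550, in the same order. By construction that step makes the distributions of the 8 arrays identical, and the cause of the smaller folds was not tested.

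The 5 genes did not vary alike within a genotype. In AT1G56100, AT1G09550, AT3G49270 and AT5G60630 the SD over the ttg1 arrays (0.554, 0.508, 0.356 and 0.343) was 3.47, 5.54, 4.67 and 3.13 times that over the Ler arrays. These ttg1 SDs stood at percentiles 98.7, 98.2, 92.5 and 91.6 of all probe sets, and the Ler SDs at 71, 32.3, 22.6 and 44. AT1G62070 was the other way round, with an SD of 0.0993 in ttg1 (percentile 20.3) and 0.486 in Ler (percentile 99.1). That Ler SD rests on replicate 1 and was 0.147 without it. Without ttg1 replicate 3 the ttg1 SD was 0.271 in AT1G56100 and 0.291 in AT1G09550, and without ttg1 replicate 1 it was 0.187 in AT5G60630. Without Ler replicate 3 the Ler SD was 0.0887 in AT1G56100, 0.0599 in AT1G09550 and 0.07 in AT5G60630, and without Ler replicate 2 it was 0.016 in AT3G49270. These runs without 1 array were added after the data were seen. Each drops the array farthest from its group mean, which lowers the SD. Without another array the ttg1 SD could rise. It was 0.678 in AT1G56100 without ttg1 replicate 1. Without ttg1 replicate 2 it was 0.616 in AT1G09550 and 0.42 in AT5G60630. The median SD over all probe sets was 0.165 in ttg1 and 0.119 in Ler. DFR and BAN, which were 126.9-fold and 86.0-fold lower, had ttg1 SDs 1.88 and 1.21 times those in Ler. No test was made of these ratios, and because levels are lost the part of signal near background in the ttg1 spread was not tested.

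**Figure D3:**
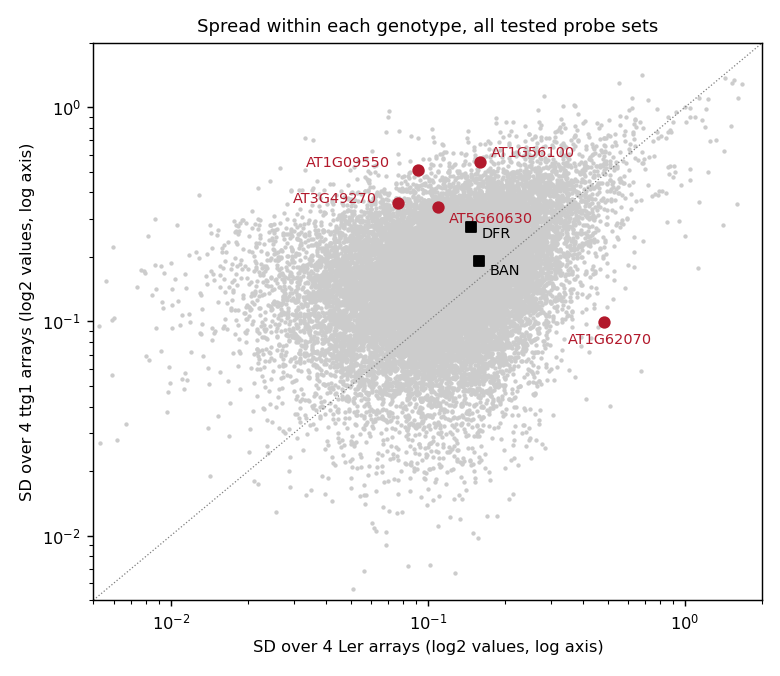
SD over the 4 Ler arrays (x axis) against SD over the 4 ttg1 arrays (y axis), both of log2 values on log axes, for the tested probe sets except 3 with an SD under 0.005 in either genotype. AT1G56100, AT1G09550, AT3G49270 and AT5G60630 (red) lie above the dotted line of equal spread and AT1G62070 far below it, with DFR and BAN (black squares) between.

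The arrays that were high or low within a genotype differed between genes. Ttg1 replicate 3 was the highest mutant array for AT1G56100, AT3G49270 and AT1G62070, and replicate 1 for AT1G09550 and AT5G60630. The lowest mutant array was replicate 2 for AT1G56100 and AT1G62070, replicate 3 for AT1G09550 and replicate 4 for AT3G49270 and AT5G60630. After removal of each genotype's mean, AT1G56100 and AT3G49270 were the closest pair of the 5 over the 8 arrays (root mean square difference 0.265) and AT1G56100 and AT1G09550 the farthest (0.604). In the seed filling genes, by contrast, replicate 4 had the highest mean in both genotypes (1.45 in ttg1 and 1.3 in Ler), and in the 5 genes replicate 4 was highest once, for AT3G49270 in Ler.

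Likeness to other genes was measured as the root mean square difference between 2 profiles over the 8 arrays, among probe sets with 1 gene. It follows mainly the size of the fall, so the nearest profiles are those of other strongly reduced genes. The nearest to AT1G56100 were AT2G38900 (0.534), DFR (0.615) and BAN (0.698). BAN was the nearest to AT1G62070 (0.524) and to AT5G60630 (0.474), with DFR next for both (0.592 and 0.728). AT2G21430 was the nearest to AT3G49270 (0.357) and to AT1G09550 (0.467). The remaining near profiles were AT2G14900 (0.561) and BAN (0.834) for AT3G49270, AT5G55320 (0.576) and AT2G32030 (0.646) for AT1G09550, AT2G38900 (0.831) for AT1G62070 and AT2G21430 (0.768) for AT5G60630.

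Other genes listed under pectin, extensin or proline-rich names were then read for comparison, since the choice of the 5 genes did not use them. In limma with Benjamini-Hochberg adjustment over all 22746 probe sets, 5.72% were called at an adjusted p under 0.05, 3.96% lower and 1.76% higher in ttg1. Those are 900 lower and 400 higher probe sets, which became 535 and 233 without Ler replicate 1, 509 and 164 without Ler replicate 2, and 548 and 190 without Ler replicate 3. Among pectin methylesterases, named probe sets covered 4 of 16 listed genes, and none passed the test (2 had an unadjusted p under 0.05 in limma). PMEPCRF had a log2 difference of 0.33 ± 0.1 (adjusted p 0.0822 in limma) and AT4G02300 one of 0.35 ± 0.14 (adjusted p 0.177), and the values of both overlapped between genotypes. The median of the 4 was 0.15, beside 0.03 over all probe sets. The other lists of pectin methylesterase inhibitors (5 genes), pectin acetylesterases (6) and pectin depolymerases (8) had no gene measured by name. Each of these family lists holds only genes whose symbol or synonym carries the family word, not the whole family. Relatives of AT1G56100 or AT1G09550 known by locus number alone may be on the array and were not looked for.

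Among extensins and proline-rich proteins, named probe sets covered 4 of 39 listed genes, and none passed the test (2 had an unadjusted p under 0.05 in limma), with a median of 0.17. HRGP1, a hydroxyproline-rich glycoprotein, had values of 0.30, -0.20, 0.29 and 0.62 in the ttg1 replicates and -0.39, -0.37, 0.03 and -0.03 in the Ler replicates. Whether its probe set also reads related genes was not checked. In limma HRGP1 had a log2 difference of 0.44 ± 0.17 and an adjusted p of 0.148. With ttg1 replicate 2, its lowest mutant array, left out it passed the test (0.6, adjusted p 0.0413). AT5G01280, a basic proline-rich protein, had -0.29 ± 0.11 (adjusted p 0.156 in limma). This list takes any gene named with the word extensin or proline-rich, and a wall role of its 4 measured genes was not checked. The 95% interval of the difference reached no lower than -0.53 in any of these 4 genes.

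On the mucilage list 4 genes fell, of 8 measured and 28 listed, with none higher and a median of -0.35. RRT1, a rhamnosyltransferase of pectin synthesis, had -0.99, -1.14, -1.46 and -1.29 in the ttg1 replicates and 1.12, 1.48, 1.09 and 0.99 in the Ler replicates. It fell by 2.39 ± 0.13 on the log2 scale (adjusted p 1.16e-06 in limma). PRX36, a peroxidase that acts in mucilage release, had -0.47, -0.41, -1.05 and -1.32 in ttg1 and 0.46, 0.63, 0.78 and 0.41 in Ler, so that replicates 3 and 4 were the lowest mutant arrays. It fell by 1.39 ± 0.19 (adjusted p 0.0017).

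UUAT1, a transporter of UDP-uronic acids for pectin synthesis, had -0.43, -0.23, -0.24 and -0.68 in ttg1 and 0.50, 0.48, 0.23 and 0.26 in Ler. Its fall was 0.76 ± 0.12 in size (log2 difference -0.76, adjusted p 0.00373 in limma). MUCI21, a gene of xylan synthesis in mucilage, had a log2 difference of -0.43 ± 0.1 (adjusted p 0.0337), and it passed in 1 of the 8 runs that each left out an array (adjusted p between 0.021 and 0.115). Leaving out any array except ttg1 replicate 3 thus left 3 called genes on the list. The other 4 measured genes, MUCI70, SBT1.7, DF1 and MUCI10, lay between -0.26 and 0.09 and did not pass. This list was drawn up with earlier results of these arrays known and is no independent evidence of its direction.

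**Figure D4:**
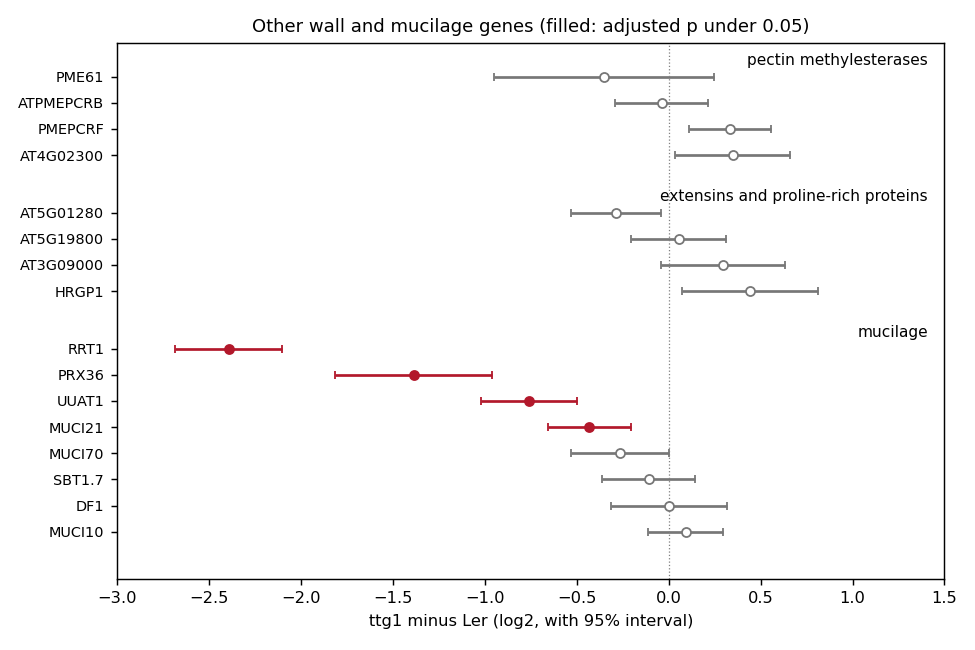
Log2 difference (ttg1 minus Ler, x axis) with its 95% interval for the measured genes of 3 lists, with filled red points for an adjusted p under 0.05 in limma. The 4 called genes are all of the mucilage list and lie between -2.39 and -0.43, and the pectin methylesterases and the extensins and proline-rich proteins lie on both sides of 0.

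Markers of other seed and silique tissues were measured for few genes, with none past the test. For the endosperm 3 of 10 markers had a named probe set, with differences between -0.01 and 0.23. For the silique wall it was 2 of 7, YAB3 with 0.67 ± 0.23 (adjusted p 0.116 in limma) and ALC with -0.47 ± 0.21 (adjusted p 0.215), which passed without ttg1 replicate 3 (-0.67, adjusted p 0.0498). YAB3 had 0.04, 0.17, 0.05 and 0.98 in the ttg1 replicates and -0.77, -0.54, -0.04 and -0.08 in the Ler replicates, without overlap. The groups of the 5 genes were at least 3.63 apart, and the part of silique wall tissue in their falls was not tested. Of 8 embryo genes none was measured by name. The 3 measured of 12 seed filling genes had a median difference of -0.0037, with a range from -0.23 to 0.21.

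The neighbours of the 5 genes in gene order were read from the RefSeq gene table of TAIR10.1, since they too were not used in the choice. AT1G09550, AT1G56100 and AT1G62070 lie on chromosome 1 in separate places, AT3G49270 lies on chromosome 3 and AT5G60630 on chromosome 5, and none of the 5 is within 10 genes of another. Within 10 genes on each side, 36 of 100 neighbours had a probe set of their own. Of these 36, 5 were called lower and 0 higher in limma, which is 13.9% beside the 5.72% of all probe sets. The window was set after the values were seen, so nothing is read from the higher share. The lower ones numbered 3 of 7 around AT1G62070, 1 of 9 around AT3G49270, 1 of 6 around AT1G09550, 0 of 8 around AT1G56100 and 0 of 6 around AT5G60630. Their count was 3 without Ler replicate 1, ttg1 replicate 1 or ttg1 replicate 2, and 2 without Ler replicate 2, 3 or 4.

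Around AT1G62070, AT1G62030 had a log2 difference of -1.29 ± 0.13 (adjusted p 0.000218 in limma), 8 genes away. AT1G62050, 3 genes away, had -0.56 ± 0.09 (adjusted p 0.00478), and these genes both passed in each of the 12 alternatives. ATG8C, an autophagy gene 5 genes away, had -0.49 ± 0.12 (adjusted p 0.0429) and passed in 5 of 12. AT3G49300, 3 genes from AT3G49270, had -1.09 ± 0.25 (adjusted p 0.0292) and AT1G09510, 5 genes from AT1G09550, -0.53 ± 0.13 (adjusted p 0.0362), and each passed in 7 of 12. These 5 neighbours and the window were singled out after their values were seen.

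The measured direct neighbours did not pass the test. On the sides of AT3G49270, iqd21 had 0.33 ± 0.3 and the pseudogene AT3G49280 -0.01 ± 0.1, and beside AT1G56100 the gene AT1G56090 had -0.17 ± 0.1 (adjusted p between 0.32 and 0.964 in limma). The other direct neighbours were not measured by name. In the gene table AT1G56100 overlaps AT1G56105, and AT5G60630 overlaps GPAT9 and the long non-coding RNA AT5G08960. Where the probes lie in these genes was not used here, so signal from an overlapping transcript on the same strand cannot be told apart from that of the named gene.

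**Figure D5:**
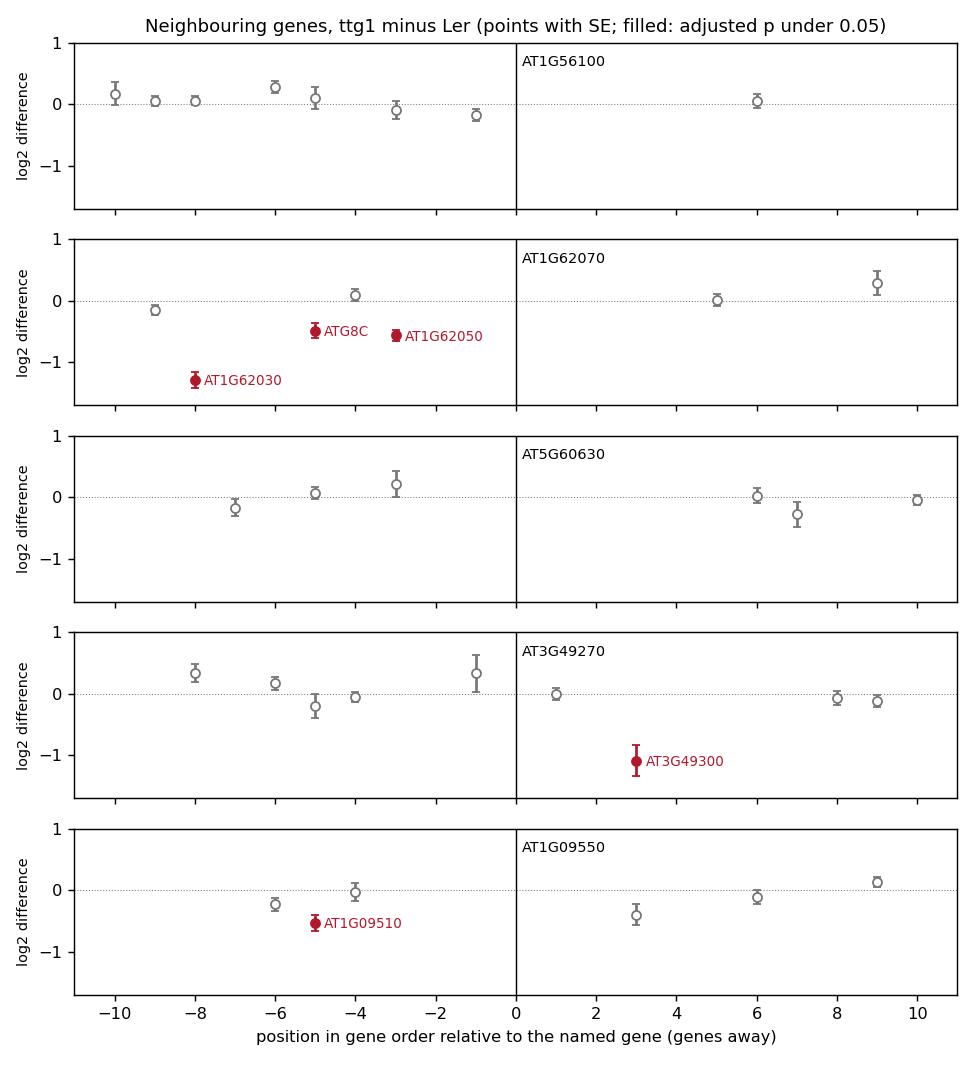
Log2 difference (ttg1 minus Ler, y axis) with its SE for the measured neighbours of each gene, by position in gene order from 10 genes before to 10 genes after (x axis). Filled red points have an adjusted p under 0.05 in limma, 3 of them around AT1G62070 and 1 each around AT3G49270 and AT1G09550. The 5 genes themselves, which were chosen for their wide falls, are not drawn.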

How the data were processed

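Total RNA of 8 seed samples was biotin-labelled for Affymetrix ATH1 arrays, per the labels. The submitters' processing notes name RMA, without a version, and the deposited values are taken as log2 on that ground, untested against scanner files. The median of every probe set is 0 (to 5e-07), so the deposited log2 values had been centred, a step that the sources do not describe. Of 22810 probe sets, 64 controls were left out. The platform annotation names 1 gene for 13513 probe sets, several for 503 and none for 8730, and 13436 of the first matched the RefSeq gene table (TAIR10.1).

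The difference ttg1 minus Ler was fitted to all 8 arrays with limma 3.58.1 (R 4.3.3, lmFit and eBayes, no covariates, two-sided, Benjamini-Hochberg adjustment, threshold 0.05), after a test on simulated data. No 2 arrays were alike (SD of their difference at least 0.195). The genes and lists were chosen with earlier results of these data known. List words were matched to gene symbols and synonyms, since no product text was given. Named were the 5 genes, up to 4 called genes per list (or the 2 with the smallest adjusted p), the 3 nearest profiles per gene, direct neighbours, genes ranked beside the 5, DFR and BAN. The alternatives were a replicate block, quantile normalization, array centring, robust eBayes and leaving out each array. The labels do not say whether the replicate numbers pair the samples.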

Additional observations from a re-analysis of the deposited data

Results flagged for a closer look

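In 42 groups of 4 arrays of the named genes, 3 had 1 array far from the other 3 by Dixon's test, where chance gives about 1 in 20 groups, and 0 of these belonged to the 5 genes. In MUCI21 the highest Ler array (replicate 2, value 0.35, against 0.07 to 0.10 in the others) had a gap of 0.872 of the group's range. In AT2G18540, a seed filling gene, the highest ttg1 array (replicate 4, value 0.52, against -0.29 to -0.26) had a gap of 0.967 of the range. In YAB3 the highest ttg1 array (replicate 4, value 0.98, against 0.04 to 0.17) had a gap of 0.857 of the range.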

How the results depend on the processing

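Robust eBayes leaves differences of means as they are, so it is not counted as an alternative for the 5 genes. The choice of genes with wide falls fixes their direction. Under quantile normalization the log2 differences were -5.94 for AT1G56100, -3.12 for AT1G09550, -3.67 for AT3G49270, -5.21 for AT1G62070 and -4.23 for AT5G60630, each moved by more than the spread between replicates, and the cause was not tested. Leaving out 1 array gave -7.9 to -7.47, -4.33 to -3.96, -4.96 to -4.67, -6.98 to -6.62 and -5.86 to -5.58 for the same genes in that order. Over all probe sets it gave 509 to 854 lower and 164 to 401 higher calls, with fewer samples in each fit. It gave 3 to 4 lower mucilage genes, 0 to 1 higher extensin or proline-rich genes and 2 to 4 lower neighbours. With the replicate number as a block, 1283 probe sets were called lower and 687 higher, among them 1 extensin or proline-rich gene (HRGP1, adjusted p 0.0446 in limma), and YAB3 passed (adjusted p 0.0227). Quantile normalization called 1201 lower and 583 higher. Same-numbered arrays had correlations of their deviations of 0.0769, 0.0318, -0.313 and 0.482 over probe sets for replicates 1 to 4. Arrays with different numbers had correlations from -0.579 to 0.448. The mean of the seed filling genes was lowest in replicate 1 and highest in replicate 4 in both genotypes. Whether the numbers pair the samples is not stated in the labels and is not settled by these values. Among single genes, the sign of AT2G28490, a seed filling gene, turned in some runs that left out 1 array (-0.28 to 0.68), as did that of AT3G49280 (-0.056 to 0.075), neither called in any. A filter on dim probe sets was not run, since the centred values hold no level, and signal over background is unknown.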

Other observations

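Families of wall-loosening proteins were read after values had been seen and carry no test. The share of all probe sets with a difference above 0 was not counted, so nothing is read from their counts by direction. Of 19 expansins measured by name, 4 had a difference (ttg1 minus Ler) below 0 and 15 above, with a median of 0.08 on the log2 scale beside 0.03 over all probe sets and a range from -0.86 in EXPA21 to 0.54 in EXPB1. The values of EXPA21 and EXPB1 overlapped between genotypes, while those of EXLA3 (-0.56 ± 0.08, SE) and EXLA1 (0.26 ± 0.09) did not. Of 10 xyloglucan endotransglucosylase/hydrolases, which cut and rejoin wall xyloglucan, 3 lay below 0 and 7 above, with a median of 0.07. The lowest was XTH32 with a log2 difference of -1.12 ± 0.18 (SE, 4 arrays per group), 2.18-fold lower in ttg1, followed by EXGT-A3 with -0.50 ± 0.22. The 5 genes described above were chosen for their wide falls, so nothing is read from the smaller differences of both families beside theirs.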
